A study of Mus musculus with 3 samples.

Results

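The genes described here are 10 pluripotency genes, *Sox2*, *Klf4*, *Esrrb*, *Sall4*, *Nanog*, *Pou5f1*, *Zfp42*, *Lin28a*, *Tdgf1* and *Tfcp2l1*, out of 21755 protein-coding genes of GENCODE M21 on the autosomes and the X chromosome. They were chosen by name for their part in the stem cell state, and their regulatory regions were taken as the accessible peaks that overlap the gene or lie within 20 kb of it, which gave 16 of the 55326 peaks called in dopaminergic neurons (DNs). *Sox2*, *Klf4*, *Esrrb* and *Sall4* were set apart as genes that are also used in neurons, and the other 6 as stem-cell-only genes. This division was made by name and not from the peaks, though members and gene lists were chosen with earlier results of these data known.

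The study mapped chromatin contacts in brain cells and in mouse embryonic stem (mES) cells, and collected accessibility data for the same kinds of cell. The DN data are single-nucleus ATAC-seq, in which a transposase cuts open chromatin in isolated nuclei, from the ventral tegmental area (VTA) of wild-type male mice of the strain C57Bl/6Nl. Replicate 1 was aged 7 weeks and replicate 2 was aged 9 weeks, and neither carried a transgene or received a treatment by the labels. Nuclei were sorted by a DNA stain and not by cell type, doublets were removed by a gate at the sort and again by the authors in ArchR, and DNs were recognised as 1 cluster of nuclei by accessibility at *Th* and other marker genes. Both libraries went into a single list of positions, without a height, a count or a score for each peak, so no value below has a replicate spread and no test was possible. The number of reads behind each peak is unknown here, so a gene without a peak is one where none was called at this depth. The bulk ATAC-seq of mES cells was not analysed here, and every statement concerns DNs alone.

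Pluripotency, the capacity of early embryonic cells to form every tissue, is held by a circuit of transcription factors that bind their own and one another's enhancers. When stem cells differentiate the circuit is switched off, and many of its promoters and enhancers lose accessibility and gain DNA methylation. Some of its factors belong to families that neural cells use as well: *Sox2* is kept in neural progenitors, and Klf, Esrr and Sall factors are found in several kinds of neuron. Promoters dense in CpG, the dinucleotide at which DNA is methylated, are mostly open in every tissue, whereas promoters poor in CpG are mostly open only where their gene is used.

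The sequences just before the start sites of 5 of the genes are shown because they differ widely in CpG content, a feature the choice of genes did not use. They are the 250 bases before the first RefSeq start site (build GRCm38.p6, the same chromosome sequences as mm10), 5′ to 3′ on the strand of the gene, with each CpG in capitals. *Tfcp2l1* lies at chr1:118627695-118627944 on the plus strand, *Klf4* at chr4:55532476-55532725 on the minus strand, *Sox2* at chr3:34649745-34649994 on the plus strand, *Nanog* at chr6:122707239-122707488 on the plus strand and *Pou5f1* at chr17:35505782-35506031 on the plus strand.
Tfcp2l1: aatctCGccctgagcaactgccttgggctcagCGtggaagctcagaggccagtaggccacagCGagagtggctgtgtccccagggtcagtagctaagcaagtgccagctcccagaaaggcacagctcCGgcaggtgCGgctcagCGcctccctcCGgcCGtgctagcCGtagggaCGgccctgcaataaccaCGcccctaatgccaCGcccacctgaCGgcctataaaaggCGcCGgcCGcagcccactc
Klf4: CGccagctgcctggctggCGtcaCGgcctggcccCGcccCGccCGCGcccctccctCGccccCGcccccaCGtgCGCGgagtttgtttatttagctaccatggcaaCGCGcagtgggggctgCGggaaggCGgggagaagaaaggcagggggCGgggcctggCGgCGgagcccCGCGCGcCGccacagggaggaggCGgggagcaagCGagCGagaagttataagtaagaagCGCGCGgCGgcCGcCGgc
Sox2: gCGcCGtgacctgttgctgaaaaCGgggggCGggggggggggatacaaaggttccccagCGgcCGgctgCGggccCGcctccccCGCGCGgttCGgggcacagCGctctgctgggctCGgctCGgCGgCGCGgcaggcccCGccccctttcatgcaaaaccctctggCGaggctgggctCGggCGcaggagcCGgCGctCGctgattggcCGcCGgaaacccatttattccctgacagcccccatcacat
Nanog: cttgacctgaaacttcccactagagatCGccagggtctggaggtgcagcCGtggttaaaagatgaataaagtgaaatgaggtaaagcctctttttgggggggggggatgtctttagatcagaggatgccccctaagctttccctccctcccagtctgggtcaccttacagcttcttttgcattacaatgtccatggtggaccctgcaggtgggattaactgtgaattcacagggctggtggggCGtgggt
Pou5f1: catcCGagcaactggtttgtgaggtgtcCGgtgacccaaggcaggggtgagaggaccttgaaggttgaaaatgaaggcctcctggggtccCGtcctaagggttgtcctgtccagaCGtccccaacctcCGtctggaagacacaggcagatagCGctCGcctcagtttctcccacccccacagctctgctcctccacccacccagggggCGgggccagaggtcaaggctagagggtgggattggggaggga
*Klf4* has 32 CpGs in this stretch, *Sox2* has 27 and *Tfcp2l1* has 16, whereas *Pou5f1* has 8 and *Nanog* has 3. A peak was called within 1 kb of the start of *Klf4* and of *Tfcp2l1*, and none within 1 kb of the start of *Sox2*, *Nanog* or *Pou5f1*.

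A peak overlapped the gene or its flanks of 20 kb in 7 of the 10 genes, beside 76.6% of all protein-coding genes, so by this broad measure the pluripotency genes were close to the background. Closer to the genes the counts fell below it. Only *Klf4*, *Esrrb* and *Tfcp2l1*, 3 of the 10, had a peak over the gene body, beside 63.8% of all genes, and only *Klf4* and *Tfcp2l1*, 2 of the 10, had a peak centred within 1 kb of a transcription start site (TSS), beside 56.4%. At 500 bp in place of 1 kb *Klf4* no longer counted, which left 1. Short genes have less room for a peak over the body, and the body count was not set beside genes of the same length. The 4 genes also used in neurons all had a peak within 20 kb, with 12 peaks in all and a median of 3 per gene, though with a limit of 10 kb *Sox2* had none. Of the 6 stem-cell-only genes 3 had a peak, with 4 peaks in all and a median of 0.5 per gene, beside a median of 2 over all protein-coding genes. With 4 and 6 genes and no replicate spread, this difference between the groups was not tested. With a limit of 50 kb the groups had 17 and 21 peaks, a mean of 4.25 and 3.50 and a median of 3.50 and 4.00 per gene, so that the direction depended on the summary used.

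**Figure D1:**
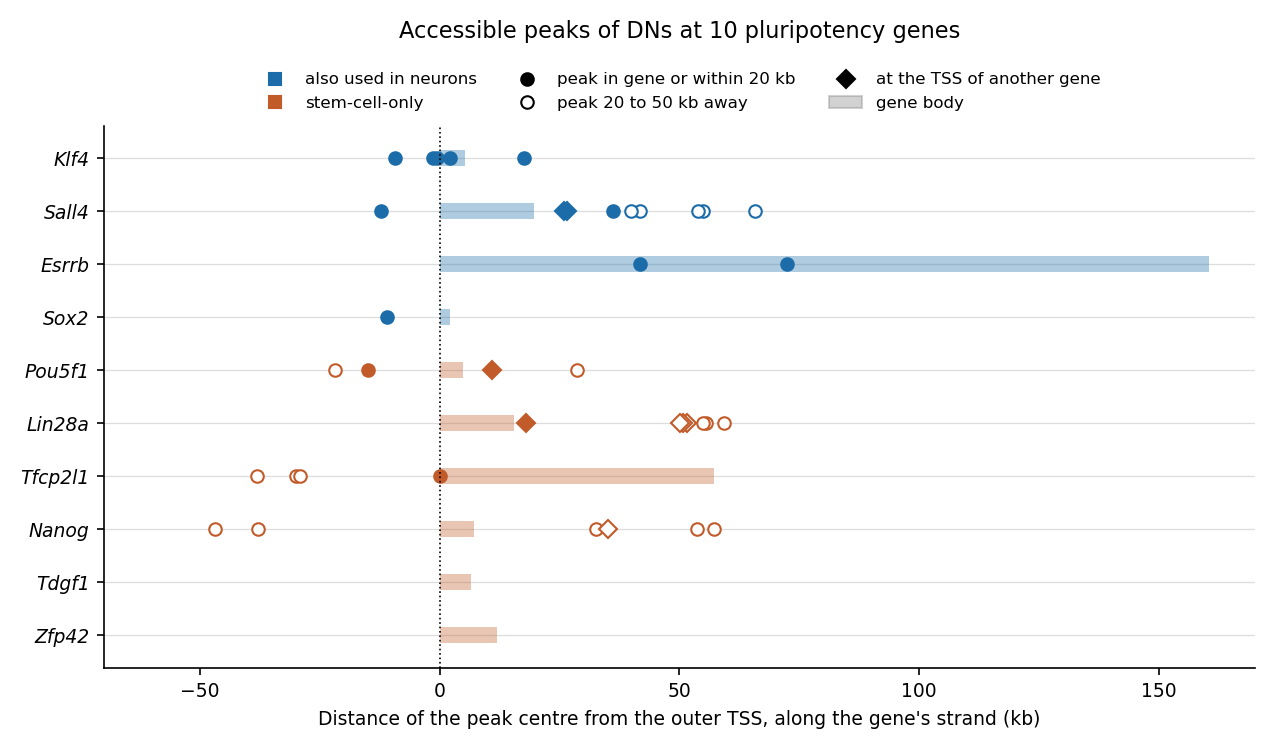
Position of each peak of DNs (points) along the strand of each gene, as distance of the peak centre from the outer TSS in kb, with the gene body as a bar. Filled points are peaks in the gene or within 20 kb, open points lie 20 to 50 kb away and diamonds are peaks within 1 kb of the TSS of another protein-coding gene. *Klf4* has the most filled points, 5, and *Nanog*, *Tdgf1* and *Zfp42* have none.

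Longer genes have more room for a peak, so for peaks within 20 kb the genes were also set beside genes of their own length. Of the 4 members in the shortest quartile, which holds genes of up to 6.56 kb, 3 had a peak within 20 kb, beside 56.5% of genes of that length. Of the 3 in the second quartile 1 had a peak, beside 73.6%. *Sall4*, the only member in the third quartile, had a peak, beside 83.9%, and so did both members in the longest quartile, *Esrrb* and *Tfcp2l1*, beside 92.4%. The members without a peak were *Tdgf1* in the shortest quartile and *Nanog* and *Zfp42* in the second.

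Among the genes also used in neurons, *Klf4*, a zinc finger factor that is used to reprogram somatic cells and acts in epithelia and neurons, had the most peaks. It is a gene of 5324 bp on the minus strand of chromosome 4, chr4:55527143-55532466, and it had 5 peaks within 20 kb, a number reached by 22.1% of genes in its length quartile. One lay in the gene, in an exon, 2078 bp downstream of the TSS, at chr4:55530139-55530638. Another, at chr4:55532762-55533261, was centred 545 bp upstream of the TSS. Its near edge was 296 bp away from the gene, so the peak counted as one at the TSS but did not cover the start itself. The other peaks were intergenic and were centred 1401 bp and 9.41 kb upstream and 17.6 kb downstream. *Klf4* was the gene with the nearest TSS to all 5, and no other protein-coding gene had a TSS within 50 kb of it.

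*Sox2*, an HMG box factor that partners Pou5f1 in stem cells and maintains neural progenitors, was much less covered. This gene of 2057 bp, at chr3:34650405-34652461 on the plus strand, had no peak in the gene or at its TSS. Its single peak within 20 kb, at chr3:34639134-34639633, was centred 11022 bp upstream of the TSS, inside *Sox2ot*, the long noncoding transcript that spans the *Sox2* locus. It was also the only peak within 250 kb of the *Sox2* TSS in either direction, where protein-coding genes had a median of 15, and only 10.2% of genes had as few. Within 20 kb, 56.5% of genes in the length quartile of *Sox2* had at least 1 peak, as *Sox2* did. The middle of the peak is printed with those of the other distal peaks below.

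*Esrrb*, an orphan nuclear receptor of the stem cell circuit that is also found in neurons, had 2 peaks, both in introns of its own gene body of 161 kb on chromosome 12. They lay at chr12:86402683-86403182 and chr12:86433261-86433760, centred 41.8 kb and 72.4 kb downstream of the outer TSS and 18712 bp and 11627 bp from the nearest of its annotated start sites. In the longest quartile of genes 80.7% had at least 2 peaks within 20 kb. Neither of the RefSeq promoters of *Esrrb* had a peak within 1 kb.

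*Sall4*, a zinc finger factor that stabilises the stem cell state, had 4 peaks within 20 kb, but only 1 of them was nearest to *Sall4* itself. That peak, at chr2:168779938-168780437, was intergenic and centred 12.2 kb upstream of the outer TSS. The others lay downstream, inside *Atp9a*, a gene for a phospholipid flippase: at chr2:168731462-168731961 in an intron, and at chr2:168741227-168741726 and chr2:168741841-168742340 within 1 kb of a TSS of *Atp9a*, with centres 324 bp and 43 bp from it. The gene body of *Sall4*, 19.6 kb at chr2:168748332-168767943 on the minus strand, held no peak.

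Among the stem-cell-only genes, *Tfcp2l1*, a Grainyhead-like factor of naive stem cells that is also active in kidney, was the only one with a peak of its own promoter. The peak, at chr1:118627649-118628148, was centred 47 bp from the TSS and overlapped the first bases of the gene, which runs for 57.2 kb on the plus strand of chromosome 1. No further peak was called in the gene. It was the only outer TSS of the 10 genes that a peak covered.

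*Pou5f1*, which encodes Oct4, the POU factor at the centre of the circuit, had 2 peaks within 20 kb and none in its gene of 4755 bp at chr17:35506018-35510772. One, at chr17:35490879-35491378, was intergenic and centred 14.9 kb upstream, with *Pou5f1* as the gene with the nearest TSS. The other, at chr17:35516717-35517216, was centred 10.9 kb downstream of the TSS and 134 bp from the TSS of *Cchcr1*, the neighbouring gene, and it also lay within 1 kb of a TSS of *Tcf19*. *Lin28a*, the RNA-binding protein that blocks maturation of let-7 miRNAs, had 1 peak, at chr4:134000692-134001191. It was centred 17.9 kb downstream of the *Lin28a* TSS and 51 bp from the TSS of *Dhdds*, which encodes a prenyltransferase. When peaks at the TSSs of other genes were left out, *Lin28a* kept no peak and the stem-cell-only genes kept 2 in all, that of the *Tfcp2l1* promoter and the upstream one of *Pou5f1*.

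No peak within 20 kb was called for *Nanog*, *Zfp42* or *Tdgf1*. For *Nanog*, the homeobox factor of the naive state, the nearest peak was centred 32.6 kb from the outer TSS, and 23.5% of all protein-coding genes were at least as far from a peak. *Tdgf1*, a coreceptor for Nodal that marks stem cells, had its nearest peak at 51.3 kb, where 18.8% of genes were at least as far. *Zfp42*, a zinc finger gene derived from *Yy1* and known as Rex1, was the farthest of the 10, with the nearest peak at 128 kb and 11.6% of genes at least as far. Over all protein-coding genes the median distance of the TSS from the nearest peak centre was 470 bp. The order of the other members was 47 bp for *Tfcp2l1*, 545 bp for *Klf4*, 10948 bp for *Pou5f1*, 11022 bp for *Sox2*, 12.2 kb for *Sall4*, 17.9 kb for *Lin28a* and 41.8 kb for *Esrrb*, whose peaks lay far inside the gene.

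The limit of 20 kb fell between peaks of the same gene. The farthest peak inside it was 16371 bp from the end of *Sall4* and the nearest one outside it was 20052 bp from the same end, and both lay in *Atp9a*. Extending the limit to 50 kb raised the number of peaks from 16 to 38, with 17 for the genes also used in neurons, up from 12, and 21 for stem-cell-only genes, up from 4. All 4 genes also used in neurons and 4 of the 6 stem-cell-only genes then had a peak. *Nanog* then had 6 peaks and was the only gene added, for 8 of 10 genes with a peak, beside 83.2% of all protein-coding genes at 50 kb. *Tdgf1* and *Zfp42* still had none.

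The absence of peaks close to a gene did not always go with an empty neighbourhood. Within 250 kb of the TSS, *Sall4* had 30 peaks, *Pou5f1* had 26, *Lin28a* had 23 and *Nanog* had 20, all above the median of 15 over protein-coding genes. *Tdgf1* had 15, and *Klf4* and *Tfcp2l1* had 12 each. *Esrrb* had 6, below the 25th percentile of 7. *Sox2* and *Zfp42* had 1 each, that of *Zfp42* centred 128 kb from its TSS. The window was laid around the TSS and not around the peak. The genes also used in neurons held both the highest and the joint lowest of these numbers.

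**Figure D2:**
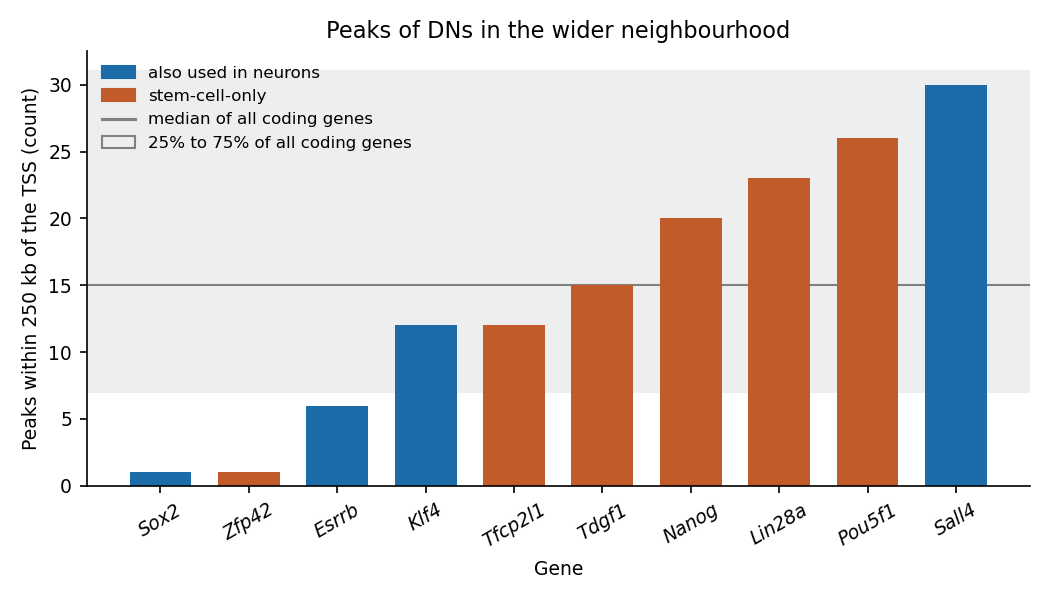
Number of peaks of DNs centred within 250 kb of the outer TSS of each gene (bars), with the median (line) and the range from the 25th to the 75th percentile (grey band) of all protein-coding genes. *Sox2* and *Zfp42*, with 1 peak each, and *Esrrb*, with 6, lie under the band, and *Sall4*, with 30, lies near its top.

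Some of these peaks lay at neighbouring genes. Across the 10 genes, 14 other protein-coding genes had a TSS within 50 kb, and 6 of these had a peak at such a TSS, not more than the 56.4% of all protein-coding genes. They were *Atp9a* beside *Sall4*, *Slc2a3* beside *Nanog*, *Cchcr1* and *Tcf19* beside *Pou5f1*, and *Dhdds* and *Hmgn2* beside *Lin28a*. *Slc2a3*, *Tcf19* and *Hmgn2* are named here after their values were seen. The 3 neighbours of *Tdgf1* had no peak at a TSS. Of the 16 peaks within 20 kb, 11 had the pluripotency gene as the gene with the nearest TSS and 5 had another. By place, 6 of the 16 lay within 1 kb of a protein-coding TSS, 4 of these at the TSS of another gene, 3 lay in introns, 1 in an exon and 6 between genes. Over all 55326 peaks 30.1% lay at a TSS, 37.5% in introns, 5.74% in exons and 26.6% between genes.

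The CpG content of the promoters was compared next. In the RefSeq promoter table, which gives 300 bp from 250 bp before to 50 bp after each start, 9 of the 10 genes matched, with 12 windows, and *Sall4* did not. A window was called CpG-rich when its GC content was at least 50% and its CpG count at least 0.6 times that expected from its C and G content. The windows of *Klf4* (ratio 0.97, GC 74.3%), *Sox2* (ratio 0.82, GC 66.3%) and *Tfcp2l1* (ratio 0.66, GC 65.3%) were CpG-rich, and 2 of these 3 had a peak centred within 1 kb of the start, beside 86.7% of all CpG-rich promoters. The windows of the other 6 genes were not CpG-rich, with ratios from 0.18 in *Nanog* to 0.55 in *Tdgf1*. None of these 6 genes had a peak within 1 kb, beside 20.3% of all promoters of that class. *Sox2* was the only member whose promoter went against the majority of its class, being CpG-rich without a peak.

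**Figure D3:**
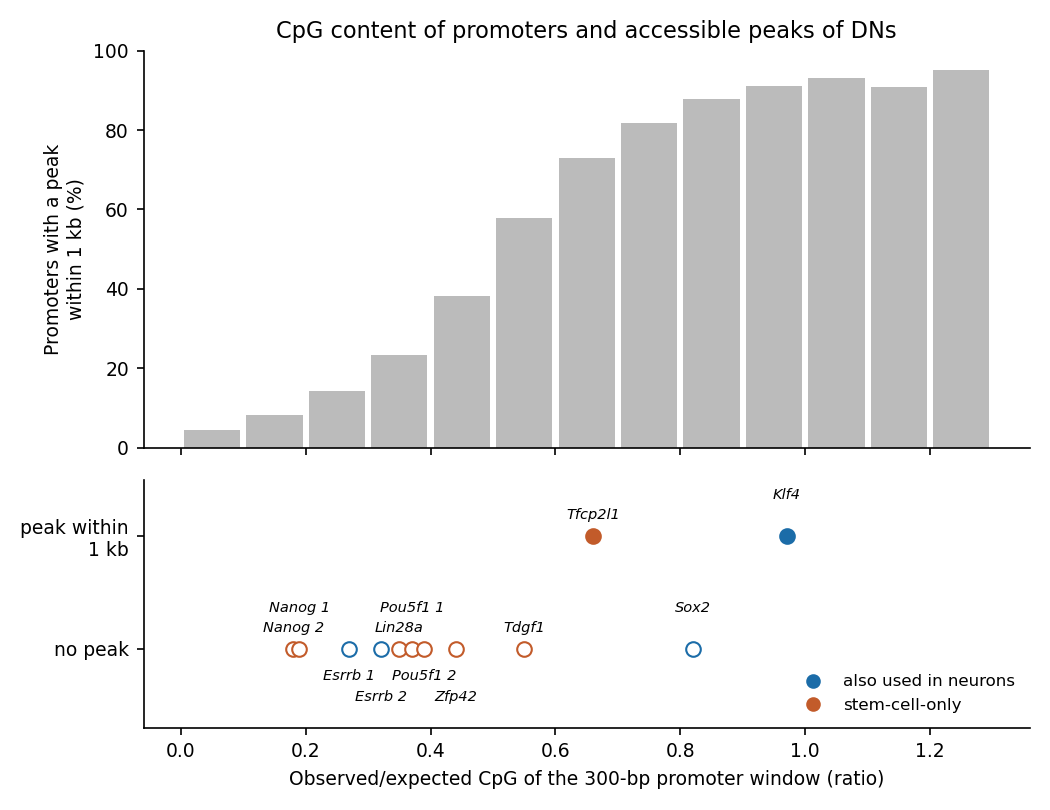
Top, share of RefSeq promoters with a peak of DNs centred within 1 kb of the start (%), in bins of the ratio of observed to expected CpG, for bins of at least 100 promoters. Bottom, the 12 promoter windows of the 9 matched genes at their ratio, filled where a peak was called, with a number where a gene has several windows. The share rises from 4.37% in the lowest bin to over 90%, and the filled points, *Tfcp2l1* and *Klf4*, lie at 0.66 and 0.97, on either side of *Sox2* at 0.82.

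The same split by CpG content was made for other lists of genes, again with RefSeq windows and a gene called CpG-rich when any of its windows was. Genes without a window in the table were left out, 4 of 22 paralogs, 7 of 16 other stem cell and germline genes, 4 of 16 other factors of the circuit, 6 of 18 signalling genes, 1 of 10 genes of exit from naive pluripotency, 2 of 10 astrocyte markers, 4 of 10 oligodendrocyte markers and 2 of 9 markers of microglia and vessels. Among paralogs of the 10 genes, 11 of 15 CpG-rich genes and 1 of 3 others had a peak, and the CpG-rich ones without it were *Sox1*, *Klf2*, *Sall1* and *Tfcp2*. Among other stem cell and germline genes, 1 of 3 CpG-rich genes and none of 6 others had one. Other factors of the circuit had a peak in 7 of 9 CpG-rich genes and 2 of 3 others, self-renewal signalling in 10 of 11 and none of 1, and genes of exit from naive pluripotency in 5 of 9, with no gene of the other class. Markers of astrocytes had none in 8 genes, all of the other class, those of oligodendrocytes had 1 in 3 CpG-rich genes and none in 3 others, and those of microglia and vessels 1 in 2 and none in 5. In DN markers, 6 of 6 CpG-rich genes and 5 of 5 others had a peak, and the ratios of the 5 ran from 0.23 in *Ddc* to 0.54. The windows of *Esrrb*, *Pou5f1*, *Zfp42* and *Lin28a* lie within that range, without a peak, and those of *Nanog* lie just under it. *Th*, *Slc6a3*, *Lmx1b*, *Foxa1* and *Foxa2* are among these markers and served to recognise the DN cluster, so this list is not independent of the peaks.

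Distal peaks are printed because at 4 of the genes they are the only sites nearest to the gene. The sequences are the middle 100 bases of the peak upstream of *Sox2* (chr3:34639334-34639433), of both intronic peaks of *Esrrb* (chr12:86402883-86402982 and chr12:86433461-86433560), of the peak upstream of *Sall4* (chr2:168780138-168780237) and of the peak upstream of *Pou5f1* (chr17:35491079-35491178), all on the plus strand of GRCm38. The last line is the stretch chr4:55514918-55514985 of the peak downstream of *Klf4*, in which capitals mark the only searched word in the peaks nearest to *Klf4*, the Klf word on the minus strand.
Sox2 upstream: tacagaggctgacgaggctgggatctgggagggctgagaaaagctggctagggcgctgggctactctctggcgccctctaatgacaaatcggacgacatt
Esrrb intron, first: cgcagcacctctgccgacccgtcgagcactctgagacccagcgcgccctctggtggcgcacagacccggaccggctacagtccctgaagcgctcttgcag
Esrrb intron, second: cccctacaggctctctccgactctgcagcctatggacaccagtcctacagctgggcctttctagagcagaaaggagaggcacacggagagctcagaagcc
Sall4 upstream: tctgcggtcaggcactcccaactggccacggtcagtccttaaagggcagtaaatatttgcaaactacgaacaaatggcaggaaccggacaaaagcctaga
Pou5f1 upstream: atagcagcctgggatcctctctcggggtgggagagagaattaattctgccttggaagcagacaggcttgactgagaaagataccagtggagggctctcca
Klf4 downstream: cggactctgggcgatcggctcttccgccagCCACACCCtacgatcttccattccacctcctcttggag
These distal peaks ranged widely in CpG over their full 500 bp. The ratio of observed to expected CpG was 0.55 in the peak of *Sox2*, 0.55 and 0.36 in those of *Esrrb*, 0.32 upstream of *Sall4* 0.16 upstream of *Pou5f1* and 0.76 downstream of *Klf4*. The peak at the *Tfcp2l1* start had 0.69, under that of the distal *Klf4* peak, and the peak near the *Klf4* start had 0.90. Across the 16 peaks the median ratio was 0.65 and the median GC content 59.4%, beside 0.32 and 52.0% over all peaks. The 16 include 5 peaks of *Klf4* alone and 4 at the TSS of another gene. The ratios of these 4 were 0.69 and 1.10 at *Atp9a*, 0.95 at *Cchcr1* and 0.81 at *Dhdds*.

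Short words bound by factors of the circuit or of DNs were searched on both strands of the 16 peaks. They were ATGCAAAT (the octamer of POU factors), CATTGTT (Sox factors), GGGTGTGG (Klf factors), TCAAGGTCA (Esrr factors), AAAGGTCA (Nr4a factors, sharing AAGGTCA with the Esrr word), AAGATGGC (Yy1 and Zfp42) and TGTTTAC (forkhead factors). The octamer, Sox, Esrr and Nr4a words were in none of the 16 peaks, beside 2.62%, 5.03%, 0.963% and 4.00% of all peaks. The Klf word was in 3 peaks, downstream of *Klf4*, in the *Atp9a* intron near *Sall4* and at the *Cchcr1* promoter near *Pou5f1*, beside 4.97% of all peaks. The Yy1 word was in 2 peaks, both in *Atp9a* (3.78% of all peaks), and the forkhead word in 1, at the *Dhdds* promoter (7.22%). In the promoter windows, the *Zfp42* window held the octamer and the Klf word, and the second *Pou5f1* window held the Sox word, found in 1.75%, 3.57% and 3.77% of all promoters. A match is a description of letters, and with 16 peaks of 500 bp these counts say nothing of which factors are bound.

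Several of the 10 genes have paralogs, relatives from the same gene family, that act in neurons or in most tissues. Of 22 paralogs 17 had a peak within 20 kb and 14 had one at a TSS, which is 77.3% and 63.6%, near the 76.6% and 56.4% of all protein-coding genes. *Esrra*, the relative of *Esrrb* that controls mitochondrial genes, had 20 peaks within 20 kb and 3 at a TSS. The POU factors of neurons *Pou3f1* and *Pou3f2* had 9 each, *Pou3f3* had 7 and *Pou3f4* had 2, all with a peak at a TSS, in contrast with *Pou5f1*. *Pou2f1*, the broadly expressed Oct1, had 3 within 20 kb, and all 3 were at a TSS.

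For the Klf family, *Klf7* had 8 peaks, *Klf9* had 7, *Klf6* had 2, and *Klf5* and *Klf2*, partners of *Klf4* in stem cells, had 1 each. *Klf2* was the only one of these without a peak at a TSS. *Sall2*, the Sall factor of adult brain, had 7 peaks, whereas *Sall1* and *Sall3* had none within 20 kb. The Sox factors nearest to *Sox2*, *Sox1* and *Sox3*, also had none, with the nearest peak at 212 kb and 52.9 kb, so none of the 3 had a peak at its start. *Yy1*, from which *Zfp42* derives, had 7 peaks, *Lin28b* had 2, *Ubp1* and *Tfcp2*, relatives of *Tfcp2l1*, had 9 and 3, *Esrrg* had 4, and *Cfc1*, the relative of *Tdgf1*, had none. A peak was centred 53 bp from the outer 5′ end of *Lin28b*, but no TSS of its basic transcripts lay within 1 kb of the centre, so it did not count as at a TSS.

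The lists of the wider circuit were counted in the same way. Of 16 other stem cell and germline genes, 8 had a peak within 20 kb and 2 a peak at a TSS, which is 50.0% with a peak within 20 kb, as in the stem-cell-only members. In this list *Zscan10* (5 peaks), *Trim71* (4) and *L1td1* (3) had the most. *Dppa2*, *Dppa4*, *Dppa5a*, *Fgf4*, *Gdf3*, *Nr0b1*, *Prdm14* and *Tcl1* had none. Of 16 other transcription and chromatin factors of the circuit, which many tissues share, 14 had a peak within 20 kb and 12 at a TSS. They were led by *Trim28* (12 peaks), *Tet1* (10) and *Jarid2* (9), and *Nr5a2* had none.

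The signalling genes of stem cell self-renewal, which are ligands, receptors, kinases and effectors of the LIF, BMP, FGF, Nodal and Wnt pathways, had a peak within 20 kb in 18 of 18 and at a TSS in 13. Genes that rise when cells leave naive pluripotency had one within 20 kb in 8 of 10 and at a TSS in 5, with 37 peaks at *Dnmt3a*, the de novo DNA methyltransferase, 7 at *Sox11* and 6 at *Sox4*, and none at *Pax6* or *Zic2*. DN markers had both in 11 of 11, with 44 peaks at *Lmx1b* and 19 at *Ddc*. The share of genes with a peak at a TSS was 20.0% in the 10 pluripotency genes, 12.5% in other stem cell and germline genes, 63.6% in paralogs, 75.0% in other factors of the circuit, 72.2% in self-renewal signalling, 50.0% in genes of exit from naive pluripotency and 100% in DN markers. In markers of astrocytes, of oligodendrocytes and of microglia and vessels it was 10.0%, 30.0% and 11.1%, so a low share was not particular to stem cell genes. No test was made between lists.

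**Figure D4:**
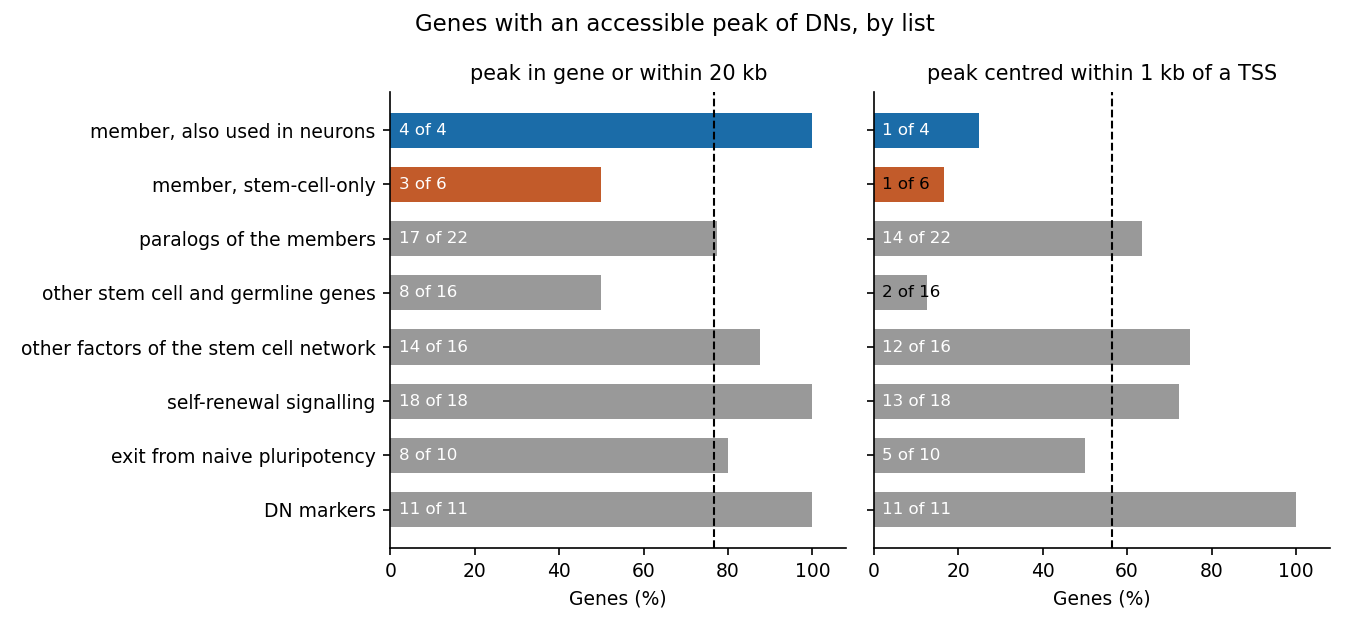
Share of genes (%) with a peak of DNs in the gene or within 20 kb (left) and centred within 1 kb of a TSS (right), for the pluripotency genes in their 2 groups and for 6 other lists, with the number of genes printed in each bar. Dashed lines mark the share over all protein-coding genes, 76.6% and 56.4%. On the right both groups of pluripotency genes lie far left of the line, as do other stem cell and germline genes. Markers of astrocytes, of oligodendrocytes and of microglia and vessels are not drawn, and their shares at a TSS were 10.0%, 30.0% and 11.1%.

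Markers of other cells of the midbrain were checked in the same list of peaks. Of 10 astrocyte markers 1 had a peak at a TSS, of 10 oligodendrocyte markers 3 had one, and of 9 markers of microglia and vessels 1 had one, beside 11 of 11 DN markers and 56.4% of all protein-coding genes. Within 20 kb 8, 8 and 7 of these markers had a peak, and over the gene body 5, 5 and 4, beside 76.6% and 63.8% of all genes. The counts at a TSS depend on the annotation. A peak was centred 98 bp from the outer 5′ end of *Gfap*, an astrocyte marker named after its values were seen. It was not counted, because no TSS of a basic transcript of *Gfap* lay within 1 kb of its centre. A part of cells other than DNs in the peaks near pluripotency genes was not tested.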

How the data were processed

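Members and gene lists were chosen with earlier results of these data known. The authors deposited 1 list of peaks for DNs, with chromosome, start and end only, made from both VTA libraries. By the submitters' processing notes Cell Ranger, Bowtie and ArchR were used with mm10, and by the methods of the study nuclei were filtered, with doublets removed, and clustered, DNs were chosen by gene scores and reproducible peaks were merged by ArchR's iterative overlap procedure. All listed peaks have 1 width and none overlap, so broad open regions can appear as separate peaks. A further filter on the share of nuclei with a peak is described in the methods, and whether it was applied to the list is not given in the sources used here.

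Starts were read as counted from 0, which gives a width of 500 bp, and are printed counted from 1. Genes came from GENCODE M21, and TSSs from its basic transcripts of protein-coding genes. A peak belonged to a gene at an overlap of at least 1 bp with the gene extended by 20 kb, and to a TSS when its centre was within 1 kb. Distances run from the outer 5′ end of the gene to the peak centre. Places of peaks were given in the order TSS, exon, intron, intergenic. The outcome is a description of 1 pooled list, so no p-value was computed. The genes named are the 10 members, paralogs, the 3 genes of a list with the most peaks, genes of a list without any peak and genes whose TSS is nearest to a peak of a member; genes outside this rule are named as such, and the result for 1 gene of a list is not reported here. Interval counts, word counts and CpG counts were tested on simulated intervals and sequences. Alternatives were windows of 10 kb and 50 kb, peak centres in place of overlaps, starts counted from 1, leaving out peaks at other genes' TSSs, a gene extended by 2 kb upstream, and other TSS distances and annotations. Python 3.11.15, numpy 2.4.6, pandas 2.3.3, pysam 0.24.0 and matplotlib 3.10.9 were used.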

Additional observations from a re-analysis of the deposited data

How the results depend on the processing

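The 7 of 10 genes with a peak within 20 kb became 6 at 10 kb, 8 at 50 kb and 6 without peaks at the TSS of another gene. Peaks of the 10 genes rose from 16 to 38 at 50 kb, those of stem-cell-only genes from 4 to 21 and those of genes also used in neurons from 12 to 17, so that the order of the groups turned by total and by median per gene (4.00 against 3.50) and not by mean (3.50 against 4.25). At 10 kb the groups had 3 and 8 peaks. Without peaks at the TSS of another gene the stem-cell-only genes had 2 peaks and the genes also used in neurons 10. With 500 bp in place of 1 kb, 1 gene in place of 2 had a peak at a TSS, *Klf4* being the gene that was lost. Requiring the peak centre in the gene took the count over gene bodies from 3 to 2, by the loss of *Tfcp2l1*. Reading starts as counted from 1 changed no count within 20 kb. TSSs of the full GENCODE annotation and of RefSeq, both added after the data were seen, gave the same 2 genes with a peak at a TSS.

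The list limits what can be said in other ways. Peaks carry no height, so a strong and a weak site count alike, and accessibility under the threshold of the caller is not listed. The libraries of the mice aged 7 weeks and 9 weeks cannot be told apart in it. No paired analysis was possible because the result comes from no test.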

Other observations

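The *Nanog* locus, which in mouse holds further stem cell genes, was followed beyond 20 kb after its values were seen. Of the 6 peaks 20 to 50 kb from *Nanog*, 4 lay in *Slc2a3*, the gene of the neuronal glucose transporter, 1 of them at its TSS. The other 2 lay upstream, one nearest to the TSS of *Dppa3* and one nearest to that of *Nanog*, centred 46.8 kb and 37.9 kb from the *Nanog* TSS. *Gdf3*, a TGF-beta ligand of stem cells in the same cluster, had no peak within 20 kb, and *Dppa3*, a maternal factor that protects DNA methylation in the early embryo, had 2 but none at a TSS.

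Near *Lin28a*, 3 of the 6 peaks 20 to 50 kb away lay at the TSS of *Hmgn2*, a gene of a nucleosome-binding protein. All 3 peaks 20 to 50 kb upstream of *Tfcp2l1* lay in introns of *Clasp1*, a microtubule-binding protein, with the *Tfcp2l1* TSS as the nearest. *Slc2a3*, *Hmgn2* and *Clasp1* were named after their values were seen.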
